A study of Mus musculus with 22 samples.

Results

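The genes described here encode the proteins of the cytosolic ribosome, the particle that translates messenger RNA. They were taken from the mouse RefSeq gene table by symbol: Rpl, Rps or Rplp followed by a number, with an optional letter a, l, x or y, plus Rpsa and Fau. The kinases named Rps6k and models whose names start with Gm were left out. This gave 82 of 21631 protein-coding genes on the autosomes and X, of which 50 encode proteins of the large 60S subunit and 32 proteins of the small 40S subunit. Some symbols of the minor kind, such as Rpl3l and Rps27l, are paralogs of main ribosomal protein genes and are counted among the 82.

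The series mapped 2 transcription factors by chromatin immunoprecipitation and sequencing in mpkCCD cells, clone 11, which are 1 clone of an immortalised mouse line from the cortical collecting duct of the kidney. Cells on permeable supports, kept without serum and hormones beforehand, received 0.1 nM dDAVP, an agonist of the vasopressin V2 receptor, or vehicle for 30 min. CREB1 was precipitated in 4 samples per treatment and C/EBP beta in 2 per treatment, and 10 further samples were input chromatin. Each antibody and treatment is represented by 1 peak list, so that 4 lists were compared, with no replicate error and an unknown sequencing depth. Peak lists carry no expression values, and the identity of the cells could not be checked against marker genes.

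Ribosomal proteins are needed in nearly equal numbers, although their genes are scattered over the genome. Their messenger RNAs share a pyrimidine tract at the first bases that couples their translation to the mTOR pathway, and their promoters are known as compact, strongly used and often without a canonical TATA box. CREB1 is a leucine zipper factor that binds the cAMP response element (CRE) and is phosphorylated by protein kinase A, the kinase that vasopressin activates in collecting duct cells through the V2 receptor and cAMP. C/EBP beta is a leucine zipper factor of another family, with its own recognition sequence, and is known for roles in stress and acute phase responses.

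CREB1 peaks were found at more ribosomal protein genes than at protein-coding genes in general, and C/EBP beta peaks were not. A gene counted as near a peak when the centre of the peak lay within 5000 bp of either end of the gene. In the CREB1 vehicle list, 17 of the 82 genes were near a peak, or 20.7% (95% Wilson interval 13.4 to 30.7), whereas 5.05% of all protein-coding genes were. In the CREB1 dDAVP list the count was 10 of 82, or 12.2% (6.76 to 21.0), against 2.67% of all genes. The C/EBP beta vehicle list held no peak near any of the 82 genes, where 0.513% of all genes had one, and a count of 0 in 82 allows a share of up to 4.48% at the upper Wilson bound. In the C/EBP beta dDAVP list, 4 of the 82 genes were near a peak, or 4.88% (1.91 to 11.9), a share close to the 5.01% of all genes. These intervals cover the counting of genes alone, since genes are not replicates of a treatment, and the difference from all genes was not tested. A gene without a listed peak may still have been bound, below what the peak caller listed.

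Both subunits contributed to the CREB1 count. Of the 50 genes of the 60S subunit, 12 were near a CREB1 peak after vehicle (24.0%, interval 14.3 to 37.4), and 8 after dDAVP. Of the 32 genes of the 40S subunit, 5 were near a CREB1 peak after vehicle (15.6%, interval 6.86 to 31.8), and 2 after dDAVP. The dDAVP shares were 16% for 60S (interval 8.34 to 28.5) and 6.25% for 40S (interval 1.73 to 20.1). The 40S interval after dDAVP included the 2.67% of all genes, and the 60S interval did not. The intervals of the subunits overlapped. The median distance from a ribosomal protein gene to the nearest CREB1 peak after vehicle was 432 kb, and that over all protein-coding genes 810 kb. After dDAVP these medians were 1061.1 and 1744.2 kb. For C/EBP beta they were 3611.8 and 4165.0 kb after vehicle and 204 and 273 kb after dDAVP. A shorter median was thus not particular to CREB1. The genes with a peak in the CREB1 vehicle list lay on 13 chromosomes, of 20 that carry a ribosomal protein gene, so that they did not form a single cluster in the genome. Neither CREB1 list held a peak on X, which is among the 20 and carries Rpl10, Rpl36a, Rpl39 and Rps4x. Genes on X stayed in the CREB1 shares and medians as genes without a peak. In all, 18 genes were near a peak in at least 1 of the 4 lists, and 64 were near none. The same count over all protein-coding genes was not made, so the 18 cannot be called many or few.

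**Figure D1:**
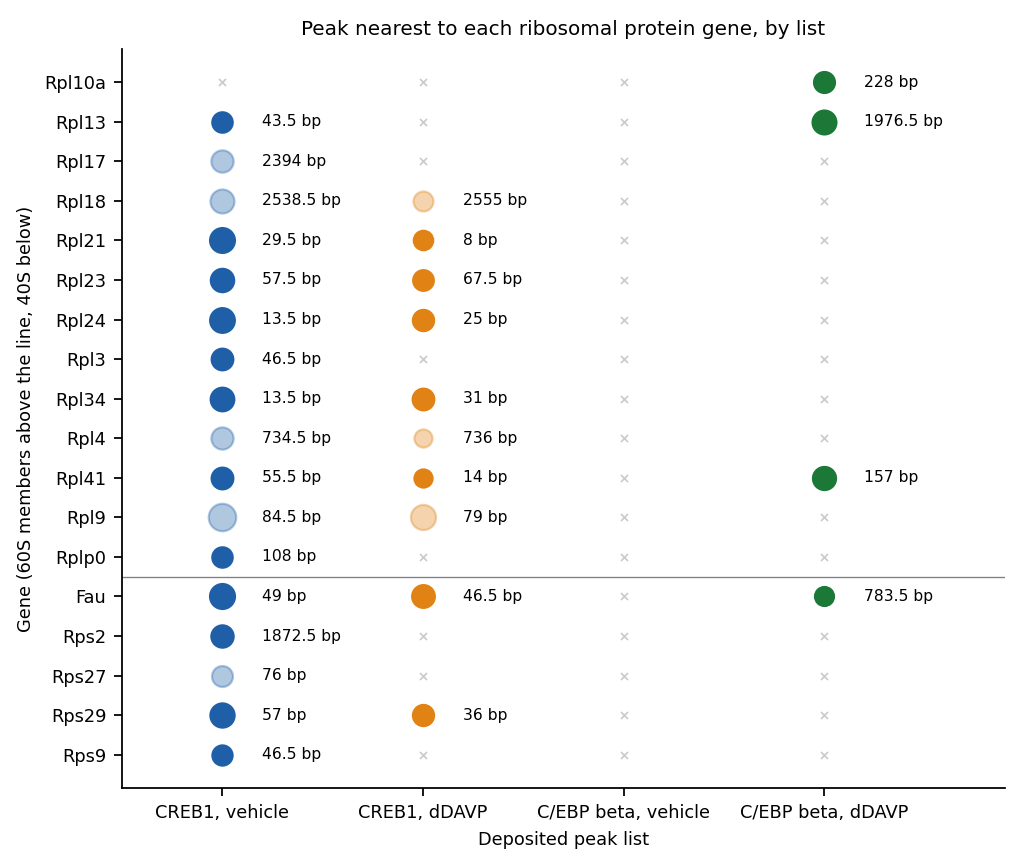
Each row is 1 of the 18 ribosomal protein genes with a peak in any list, and each column is a peak list. A disc stands for a peak, with its area proportional to the peak width and its distance from the nearer gene end printed beside it in bp, and a pale disc marks a peak to which another gene was nearer. Crosses mark lists with no peak within 5000 bp, and 17, 10, 0 and 4 genes have a disc in the columns from left to right.

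Most of the CREB1 peaks stood at the start of the ribosomal protein gene itself. The 17 genes accounted for 18 peaks after vehicle, with widths from 234 to 438 bp and a median of 298 bp, where the median of all 785 peaks in the list was 290 bp. A ribosomal protein gene was the nearest protein-coding gene for 13 of the 18, in 1 case by a tie, since the second peak of Rpl24 was 2284 bp from an end of Rpl24 and as far from an end of Zbtb11. A start site with its strand was tabulated for the gene at 14 of the 18 peaks. At 12 of these the peak centre lay within 250 bp of the start, and at 11 of the 12 it lay upstream, with a median position of -56.5 bp and a range from -108 to 13.5 bp.

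The promoters below are shown because the peaks lie on them and because they differ in how closely they match the CRE, whose letters are TGACGTCA. Each sequence runs from 150 bases before the annotated start to the base before it, on the strand of the gene, and comes from RefSeq promoter sequences of the mm10 assembly (GRCm38.p6). Capitals mark the full CRE, or the 5 letters of its core, TGACG, on either strand (CGTCA when read on the other). The first 4 carry a full CRE under a CREB1 peak. They are Rps9, a protein of the mRNA entry side of the small subunit, Fau, a fusion of a ubiquitin-like peptide with a 40S protein, and Rpl13 and Rpl18 of the large subunit.
Rps9, chr7:3703891-3704040, plus strand: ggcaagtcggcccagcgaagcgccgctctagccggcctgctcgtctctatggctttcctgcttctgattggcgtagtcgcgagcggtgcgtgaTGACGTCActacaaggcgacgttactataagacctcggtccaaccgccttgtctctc
Fau, chr19:6057797-6057946, plus strand: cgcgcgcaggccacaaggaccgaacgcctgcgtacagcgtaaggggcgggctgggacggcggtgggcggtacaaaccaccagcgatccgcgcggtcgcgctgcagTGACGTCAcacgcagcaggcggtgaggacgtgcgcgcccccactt
Rpl13, chr8:123102200-123102349, plus strand: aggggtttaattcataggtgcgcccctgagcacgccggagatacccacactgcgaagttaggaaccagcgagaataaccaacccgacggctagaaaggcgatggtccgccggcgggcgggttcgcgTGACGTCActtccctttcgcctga
Rpl18, chr7:45717921-45718070, plus strand: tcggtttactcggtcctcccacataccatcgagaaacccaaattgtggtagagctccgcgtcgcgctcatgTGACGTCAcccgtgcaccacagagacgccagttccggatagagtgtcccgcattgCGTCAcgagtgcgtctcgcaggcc

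The next 3 sequences carry the core without the full element, also under a CREB1 peak. Rpl23 is a 60S protein known to bind MDM2 when ribosome assembly is disturbed, Rps27 is a zinc-finger protein of the 40S subunit, and Rpl9 is a 60S protein.
Rpl23, chr11:97782440-97782589, minus strand: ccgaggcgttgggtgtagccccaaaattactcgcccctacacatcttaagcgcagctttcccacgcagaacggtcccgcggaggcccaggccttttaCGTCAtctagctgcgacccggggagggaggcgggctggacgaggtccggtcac
Rps27, chr3:90213649-90213798, minus strand: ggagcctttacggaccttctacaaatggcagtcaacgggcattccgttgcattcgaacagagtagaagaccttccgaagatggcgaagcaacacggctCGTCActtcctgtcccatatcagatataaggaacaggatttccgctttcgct
Rpl9, chr5:65391432-65391581, minus strand: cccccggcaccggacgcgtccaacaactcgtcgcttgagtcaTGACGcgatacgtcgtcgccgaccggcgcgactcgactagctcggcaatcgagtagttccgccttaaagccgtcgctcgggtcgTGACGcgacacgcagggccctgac

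At Rpl24, a 60S protein near the interface with the small subunit, and at Rpl41, the smallest ribosomal protein, the closest match to the CRE lies just past the start. The 24 bases around it are shown, with the octamer that matches 7 of the 8 letters of the CRE in capitals.
Rpl24, chr16:55966291-55966314, plus strand: ctcggaagTGACATCAtctctggg
Rpl41, chr10:128549148-128549171, minus strand: ctcggaagTGACGACAccgagcac

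For comparison, Rpl26 and Rpl27a of the large subunit carry a full CRE in the same window and had no CREB1 peak nearby in either list. The nearest CREB1 peak after vehicle was 48.4 kb from Rpl26 and 539 kb from Rpl27a.
Rpl26, chr11:68901416-68901565, plus strand: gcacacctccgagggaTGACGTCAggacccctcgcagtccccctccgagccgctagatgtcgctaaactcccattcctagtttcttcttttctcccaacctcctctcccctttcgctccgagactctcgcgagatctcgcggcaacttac
Rpl27a, chr7:109519045-109519194, plus strand: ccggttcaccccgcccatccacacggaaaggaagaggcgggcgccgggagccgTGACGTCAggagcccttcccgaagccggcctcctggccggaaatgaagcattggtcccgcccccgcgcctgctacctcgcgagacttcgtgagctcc

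The CRE was more frequent at ribosomal protein genes than at protein-coding genes in general. A promoter of 300 bases, from 250 before the start to the first 50 transcribed bases, was tabulated for 62 of the 82 ribosomal protein genes and for 17274 protein-coding genes. The full CRE was present in 6 of the 62 (9.68%) and in 445 of the 17274 (2.58%). The core TGACG, searched on both strands and contained in every full CRE, was present in 31 of the 62 (50.0%) and in 4582 of the 17274 (26.5%). The share with the core in promoters of mitochondrial ribosomal protein genes was 29 of 69 (42.0%). A match of letters is a description of the sequence and not a measured binding site.

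Among ribosomal protein promoters, those under a CREB1 peak held the element most often. Of the 12 with a CREB1 vehicle peak centred within 250 bp of the start, 4 held the full CRE and 10 the core, whereas 2 and 21 of the 50 without such a peak did. The 667 protein-coding genes with such a peak held the full CRE in 25.5% and the core in 89.2%, beside 33.3% and 83.3% of the 12. Read in the other direction, 10 of the 31 ribosomal protein promoters with a core had a CREB1 peak (32.3%), against 595 of 4582 promoters with a core over all genes (13.0%). Without a core, 2 of 31 had a peak, against 72 of 12692 over all genes (0.567%).

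The element lay close to the middle of the peak. Over the 10 genes with a core and a peak at the start, the nearest core was a median of 16.5 bp from the centre of the vehicle peak, and the median over all 595 such genes was 18 bp. The distance was 6 bp at Fau, 6.5 bp at Rpl23, 7.5 bp at Rpl34, 8.5 bp at Rpl18 and 11.5 bp at Rps9. It was 21.5 bp at both Rpl13 and Rpl9 and 26 bp at Rps27. The cores of Rpl41 and of Rplp0, the stem of the ribosomal stalk, lay farther out, at 62.5 and 90 bp. The full CRE began 57 bases before the start in Rps9, 45 in Fau, 24 in Rpl13 and 79 in Rpl18.

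The genes Rpl24 and Rps2 had a CREB1 peak at the start without a core in the tabulated promoter. In Rpl24 the octamer shown above began 24 bases past the start and lay 14 bp from the centre of the vehicle peak and 2.5 bp from that of the dDAVP peak. Octamers that match at least 7 of the 8 letters, a search added after the exact matches had been seen, were present in 7 of the 12 ribosomal protein promoters with a CREB1 vehicle peak and in 7 of the 50 without. Over all genes they were present in 379 of 667 promoters with such a peak (56.8%) and in 2432 of 17274 in all (14.1%). Rps2, a protein at the mRNA entry channel of the small subunit, had neither this octamer nor the core in its 300 bases.

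**Figure D2:**
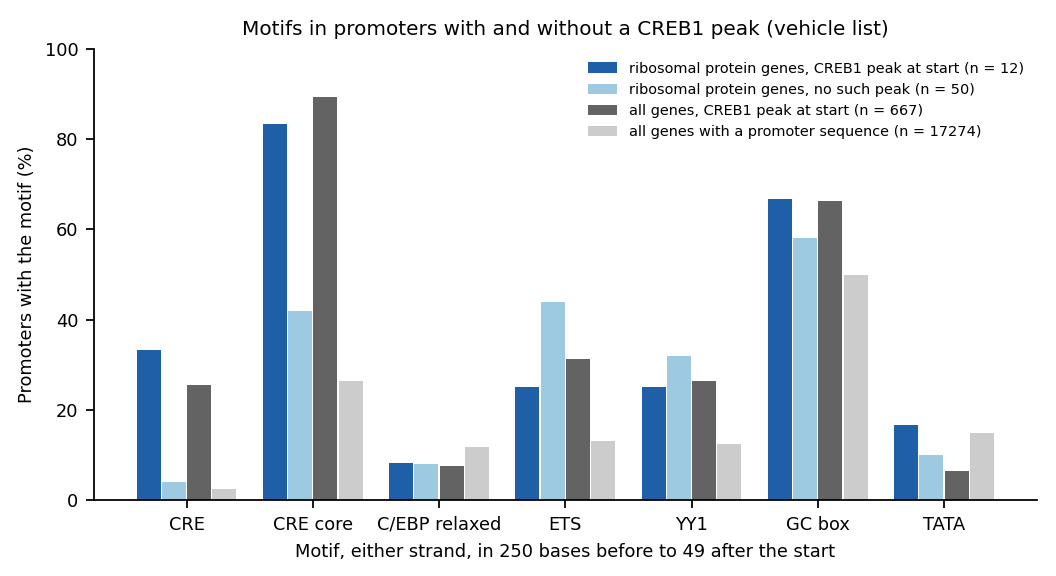
Bars give the percentage of promoters that hold each motif on either strand, for 12 ribosomal protein genes with and 50 without a CREB1 vehicle peak at the start, for all 667 genes with such a peak and for all 17274 genes with a tabulated promoter. The full CRE is in 33.3%, 4%, 25.5% and 2.58% of these groups and the core in 83.3%, 42%, 89.2% and 26.5%.

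**Figure D3:**
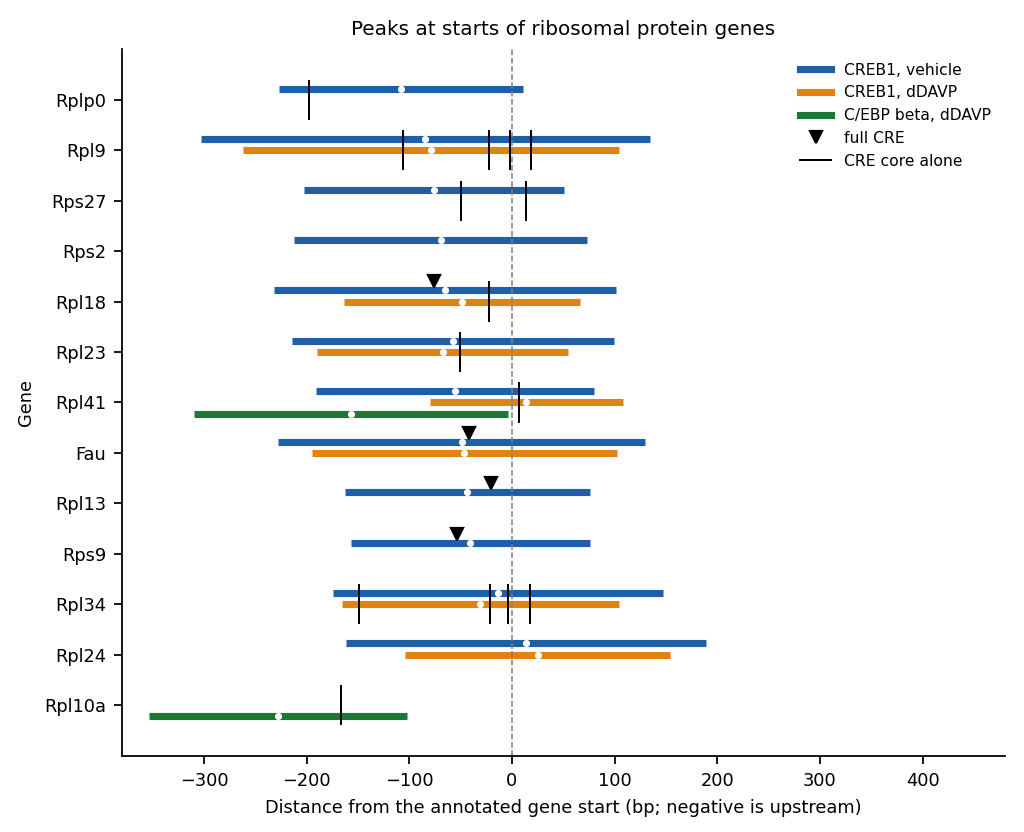
Bars show the extent of each peak centred within 250 bp of a ribosomal protein gene start, with a white dot at its centre, on a scale of bp from the annotated start (negative values are upstream). Triangles mark a full CRE and vertical ticks the 5-letter core alone. The 4 triangles, at Rpl18, Fau, Rpl13 and Rps9, all stand within 25 bp of the centre of the CREB1 vehicle peak, and Rps2 and Rpl24 have neither mark.

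After dDAVP, CREB1 peaks near ribosomal protein genes were a subset of those after vehicle, as were nearly all peaks of the list. All 10 dDAVP peaks near these genes overlapped a vehicle peak, and 398 of all 406 dDAVP peaks did (98%). Of the 17 genes near a CREB1 peak after vehicle, 10 were also near one after dDAVP, and no gene was near one after dDAVP alone. That share, 58.8%, was close to the share over all genes, where 568 of the 1092 near a vehicle peak were also near a dDAVP peak (52%). These 568 genes were 2.63% of all protein-coding genes, and 577 genes were near a dDAVP peak. The 10 genes were Rpl4, Rpl9, Rpl18, Rpl21, Rpl23, Rpl24, Rpl34 and Rpl41 of the large subunit and Fau and Rps29 of the small subunit. The other 7, with a peak after vehicle alone, were Rpl3, Rpl13, Rpl17, Rplp0, Rps2, Rps9 and Rps27. The CREB1 list was shorter after dDAVP in general, with 406 peaks against 785. Of the 18 vehicle peaks near ribosomal protein genes, 10 overlapped a dDAVP peak (55.6%), and 397 of all 785 did (50.6%), a share close to that near ribosomal protein genes. Whether the shorter list reflects the treatment or the depth and yield of the libraries cannot be told apart with 1 list per treatment.

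The peaks present after vehicle alone were the narrower ones. The 10 shared peaks had vehicle widths of 272 to 438 bp, with a median of 335.5 bp, and the 8 others had widths of 234 to 307 bp, with a median of 262.5 bp. These ranges overlapped only between 272 and 307 bp. The same order held over the whole list, with medians of 343 bp for shared and 244 bp for other peaks. Genes with a full CRE fell on both sides, since Fau and Rpl18 kept a peak after dDAVP while Rpl13 and Rps9 had none listed.

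Every shared peak was narrower after dDAVP. At Rpl9 the width was 438 bp after vehicle and 367 bp after dDAVP, which placed it at rank 60 of 785 and 28 of 406 by width and made it the widest of these peaks in both lists. At Fau the widths were 359 and 298 bp, at Rpl24 352 and 259 bp, and at Rpl21, a 60S protein, 356 and 217 bp. Those of Rps29, a small zinc-binding 40S protein, were 337 and 257 bp. The remaining pairs were 334 and 231 bp at Rpl18, 322 and 271 bp at Rpl34, 314 and 246 bp at Rpl23, 286 and 191 bp at Rpl4, and 272 and 189 bp at Rpl41. The vehicle peak was wider in 10 of 10 pairs here and in 392 of 398 over the whole list, and narrower dDAVP peaks thus occurred across the list. In 9 of the 10 pairs the dDAVP peak lay wholly inside the vehicle peak, as did 349 of 398 in all (87.7%).

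**Figure D4:**
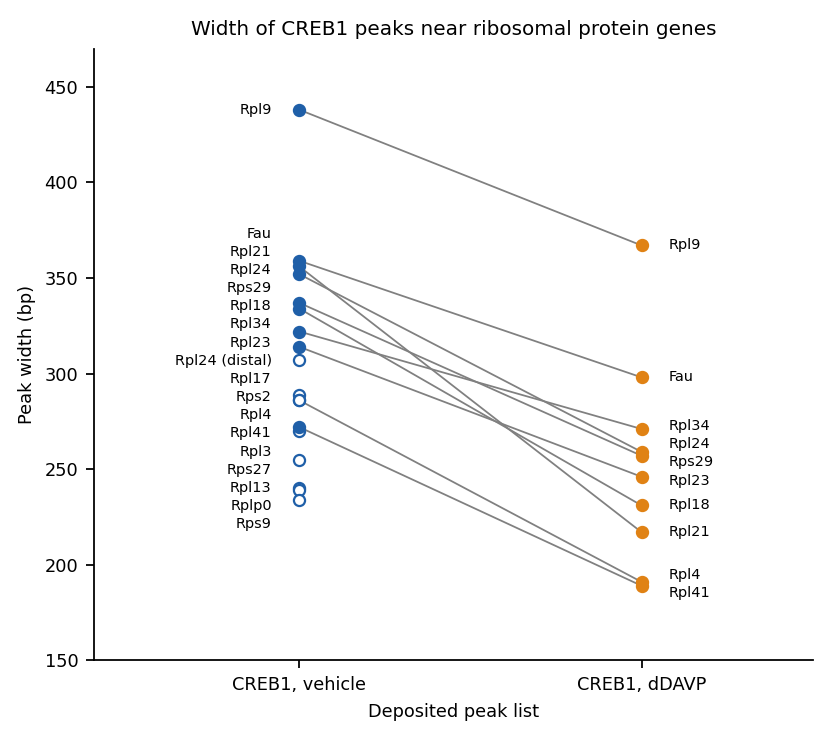
Points give the width in bp of each CREB1 peak near a ribosomal protein gene after vehicle (18 peaks) and after dDAVP (10 peaks), and lines join peaks that overlap. Filled points are peaks found in both lists and open points those in the vehicle list alone. Each of the 10 lines falls, and the open points lie at or below 307 bp.

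The centres of 9 of the 10 pairs moved by 1.5 to 37.5 bp between the lists, and that of Rpl41 by 69.5 bp. At Rpl41 the vehicle peak was centred 55.5 bp upstream of the start and the dDAVP peak 14 bp downstream, 5.5 bp from the octamer shown above, which lay 64 bp from the vehicle centre. This pair was also the one in which the dDAVP peak reached beyond the vehicle peak, with an overlap of 161 bp. At Fau the centre stood 49 bp upstream after vehicle and 46.5 bp after dDAVP, and at Rpl23 57.5 and 67.5 bp.

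The 40S genes with a CREB1 peak were few enough to give in full. Fau, Rps9, Rps27 and Rps2 had a vehicle peak centred 49, 40.5, 76 and 69.5 bp upstream of a tabulated start. The peak of Rps29 was centred 57 bp outside the end of the gene with the higher coordinate after vehicle and 36 bp outside it after dDAVP. The Rps2 peak stood 1872.5 bp inside the gene as annotated, which extends beyond the tabulated start, and the nearest dDAVP peak was 10460 bp away. Rpsa, which also serves as a laminin receptor precursor, and Rps6, the 40S substrate of the S6 kinases, had no peak near in any list. The nearest CREB1 peak after vehicle was 233 kb from Rpsa and 7699.4 kb from Rps6.

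Among the 60S genes, Rpl21 and Rpl3, the latter a protein next to the peptidyl transferase centre, had a vehicle peak 29.5 and 46.5 bp from an end of the gene. The Rplp0 peak was centred 108 bp upstream of the start, the farthest of the CREB1 peaks at starts. The vehicle peak of Rpl13 was centred 43.5 bp upstream and that of Rpl34 13.5 bp upstream. Each of these 5 peaks had the ribosomal protein gene as its nearest gene.

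Other peaks lay between a ribosomal protein gene and a neighbour, or belonged to the neighbour by distance. The Rpl4 peak, near the gene of a protein that lines the exit tunnel, stood 734.5 bp past the gene and 0.5 bp from the start of Snapc5, a subunit of the small nuclear RNA activating complex. It was as close after dDAVP, 1 bp from that start. The peak counted for Rpl17 was 2394 bp from the gene and 64 bp from an end of BC031181. A second peak counted for Rpl24 lay 2284 bp past its far end and 83 bp upstream of the start of Zbtb11. At Rpl9, Rps27, Rpl18 and Fau the peak spanned a pair of divergent starts. At the first 3, its centre after vehicle lay 18.5 bp past the start of Lias, the lipoic acid synthetase, 9 bp past that of Rab13, a small GTPase of epithelial junctions, and, between the starts, 3.5 bp upstream of Sphk2, a sphingosine kinase. At Fau it lay between the starts, 143 bp upstream of that of the mitochondrial ribosomal protein gene Mrpl49. A peak at such a shared promoter cannot be assigned to 1 of the genes.

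Divergent starts within 1000 bp were found at 9 of the 62 ribosomal protein genes with a tabulated start (14.5%) and at 1515 of 17274 genes (8.77%). Among the 12 with a CREB1 peak at the start there were 4, the pairs just named, and among all 667 genes with such a peak 193 had one (28.9%). The count of ribosomal protein genes near a CREB1 peak after vehicle was 12 (14.6%) when only the gene nearest to each peak was counted, and 743 of 21631 genes (3.43%) were counted under the same rule.

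C/EBP beta peaks at ribosomal protein genes were few. After dDAVP they lay near Rpl10a, Rpl13, Rpl41 and Fau, and each of the 4 was the nearest gene of its peak. The authors' score of the peak, used here only to rank peaks within the list, was 323 at Rpl41 (rank 689 of 2401), 188 at Rpl10a (rank 1250), 162 at Rpl13 (rank 1407) and 120 at Fau (rank 1773). The median of the list was 197, so that 1 of the 4 scores was above it. The vehicle list, with 209 peaks against 2401, held none of them. How much of the difference in list length is treatment and how much depth or yield cannot be told apart.

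At Rpl10a, which encodes a 60S protein, the C/EBP beta peak was centred 228 bp upstream of the start, and no CREB1 peak was within 151 kb. The 250 bases before the start are shown because a match to the relaxed C/EBP pattern TTNNGCAA (either strand, in capitals, here read on the strand of the gene) lies 6.5 bp from the centre of the peak.
Rpl10a, chr17:28328221-28328470, plus strand: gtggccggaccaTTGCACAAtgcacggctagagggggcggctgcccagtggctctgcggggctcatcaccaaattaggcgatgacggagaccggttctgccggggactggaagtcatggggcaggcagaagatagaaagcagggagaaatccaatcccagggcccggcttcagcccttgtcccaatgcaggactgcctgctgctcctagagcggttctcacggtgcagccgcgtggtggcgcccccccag

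The pattern TTNNGCAA was present in 5 of the 62 ribosomal protein promoters (8.06%) and in 2038 of 17274 promoters in all (11.8%). Among the 232 genes with a C/EBP beta dDAVP peak at the start it was present in 99 (42.7%). The palindrome TTGCGCAA and the composite element TGATGCAA, bound by C/EBP and ATF4 dimers, were in none of the 62 promoters, and were in 43 (0.249%) and 172 (0.996%) of the 17274. Rpl41, the other ribosomal protein gene with a C/EBP beta peak at the start, had no match to these patterns in its 300 bases.

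Both factors had a peak near Rpl41 and Fau after dDAVP, or 2 of 82 genes, where 72 protein-coding genes, or 0.333%, were near a peak of both. At Rpl41 the peaks overlapped. The C/EBP beta peak, centred 157 bp upstream of the start, shared 77 bp with the CREB1 dDAVP peak and 188 bp with the CREB1 vehicle peak, and the centres were 171 and 101.5 bp apart. At Fau the C/EBP beta peak lay inside the gene, 793.5 bp past the start, and its centre was 840 bp from that of the CREB1 dDAVP peak, with no overlap. At Rpl13 the C/EBP beta peak after dDAVP was 1976.5 bp upstream of the start, 1933 bp from the CREB1 vehicle peak.

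The bound of 5000 bp decided few genes. The outermost genes counted for CREB1 after vehicle were Rps2, Rpl17 and Rpl18, at 1872.5, 2394 and 2538.5 bp from a gene end, and the nearest ones beyond the bound were Rpl3l, Rpl36 and Rps7, at 7832.5, 12691.5 and 13652.5 bp. The peaks of Rps2 and Rpl18 nevertheless lay 69.5 and 65.5 bp upstream of a tabulated start, because both genes as annotated extend beyond that start. For CREB1 after dDAVP the outermost were Rpl9, Rpl4 and Rpl18, at 79, 736 and 2555 bp, and the nearest beyond were Rps2 at 10460 bp, Rpl36 at 12664.5 bp and Rpl3l at 20165 bp. Genes beyond the bound in the C/EBP beta vehicle list included Rps15 and Rps25, at 37683 and 63481 bp. After dDAVP the nearest beyond were Rpl30, Rps19 and Rpl37, at 11593.5, 14468 and 16872 bp.

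Other genes of the translation apparatus were counted in the same way. CREB1 peaks after vehicle were near 14 of 83 ribosome assembly genes (16.9%, interval 10.3 to 26.3) and 8 after dDAVP (9.64%). The closest were at Utp15, Nol10 and Rrp1, whose products act in ribosomal RNA processing, at 5.5, 8.5 and 12 bp from a gene end, and at Gar1, a protein of box H/ACA particles, at 15.5 bp. Of 78 mitochondrial ribosomal protein genes, 8 were near a CREB1 peak after vehicle (10.3%, interval 5.29 to 19) and 5 after dDAVP (6.41%). Among them were Mrps17, at 43.5 and 45 bp, and Mrpl49, through the peak it shares with Fau. The interval of the cytosolic ribosomal protein genes after vehicle overlapped those of both groups, and no difference between these groups was tested.

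Initiation factors were counted in each list as well. CREB1 peaks after vehicle were near 3 of 38 (7.89%, interval 2.72 to 20.8), where 5.05% of all genes were. The 3 were Eif2b1, Eif4a1 and Eif5a, at 22.5, 28.5 and 272 bp. CREB1 peaks after dDAVP were near 2 of 38 (5.26%, interval 1.46 to 17.3), where 2.67% of all genes were. No initiation factor was near a C/EBP beta peak after vehicle, and 7 of 38 were near one after dDAVP (18.4%, interval 9.22 to 33.4), where 5.01% of all genes were. The closest of the 7 were Eif2s2, Eif6, Eif1 and Eif4a1, at 77.5, 137, 597 and 956 bp. The interval of the cytosolic ribosomal protein genes in that list, 1.91 to 11.9, overlapped it. Of 12 elongation and termination factors, CREB1 was near Abce1, a ribosome recycling factor, at 3 bp and Eef2 at 360 bp after vehicle, and C/EBP beta was near Etf1 at 55 bp and Hbs1l at 166.5 bp after dDAVP. Each share was 16.7% (interval 4.7 to 44.8), and the interval included the 5.05% and 5.01% of all genes in these lists. Of 20 other genes whose messenger RNAs carry the same pyrimidine tract, CREB1 was near Tpt1 at 12.5 bp and Eef2 after vehicle, and C/EBP beta was near Pabpc1 at 1638 bp after dDAVP. Those shares were 10% (interval 2.79 to 30.1) and 5% (interval 0.888 to 23.6), and both intervals included the share of all genes.

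Of 6 genes of ribosomal proteins whose names fall outside the rule, none had a peak within 5000 bp in any list, and 0 of 6 allows a share of up to 39% at the upper Wilson bound. Among them, Rack1, a 40S scaffold protein, was 1486.2 kb from a CREB1 peak after vehicle. The 8 minor paralogs found in the gene table had none either, and 0 of 8 allows up to 32.4%, so that neither count sets these genes apart from the 5.05% of all genes near a CREB1 peak after vehicle.

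**Figure D5:**
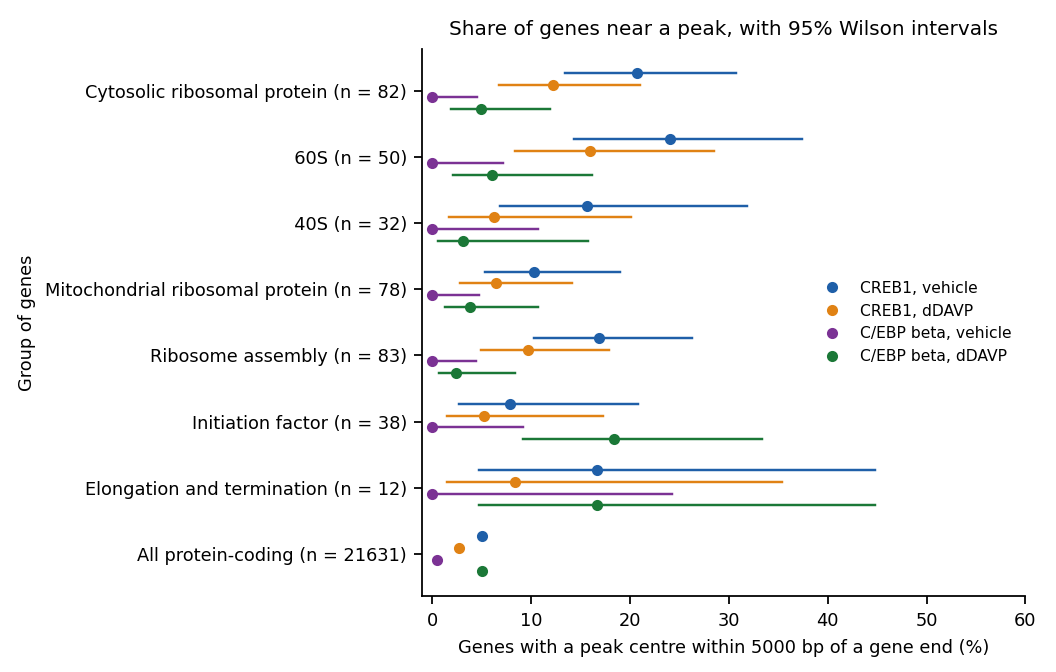
Points give the percentage of genes with a peak centre within 5000 bp of a gene end, by group of genes and peak list, and lines are 95% Wilson intervals, which cover the counting of genes alone. For the cytosolic ribosomal protein genes the points stand at 20.7% and 12.2% for CREB1 after vehicle and dDAVP and at 0% and 4.88% for C/EBP beta, and for all protein-coding genes at 5.05%, 2.67%, 0.513% and 5.01%.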

How the data were processed

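Peak lists were deposited by the authors, 1 per antibody and treatment, in the mouse build mm10. The submitters' processing notes name BWA, SAMtools, MACS2 and bedtools, with no roles. How replicates were combined is not given in the sources used here. Per the deposited lists, CREB1 peaks have a position and no other value. A C/EBP beta peak also has a score, deposited by the authors without a stated scale, and a name that gives replicate 1, MACS2 with a bandwidth of 300, 1 copy per duplicate and a q-value of 0.01. Samples were grouped by title.

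The 82 genes, the lists of other genes and the motifs were chosen with earlier results of these data known. A gene was near a peak when either end of it, in the RefSeq gene table for mm10, was within 5000 bp of the peak centre. Starts, strands and promoters came from a RefSeq promoter table (GRCm38.p6), matched by gene identifier for 62 of the 82. In all, 11 motifs were searched on both strands. Wilson intervals at 95% were used, and no test was made, since each group has 1 list. Python 3.11.15 with pandas 2.3.3, numpy 2.4.6 and scipy 1.17.1 was used, and the counting was tested on simulated data.

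Named genes were every ribosomal protein gene within 5000 bp of a peak, the 3 closest beyond that bound per list, up to 4 genes per other gene list and peak list, genes sharing a peak with a named one, and Rpsa, Fau, Rps6, Rplp0 and Rack1. Some results under this rule are not reported here. Alternatives covered reaches of 500, 1000 and 50000 bp, overlap in place of distance, the start alone, the nearest gene alone, names outside the rule, the upper 50% of peaks by width or score and a stricter overlap. A start within 250 bp and the search for 7 of 8 CRE letters were added after the data were seen.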

Additional observations from a re-analysis of the deposited data

How the results depend on the processing

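Of 40 alternative counts, 8 differed from the reported count by over 1.5 times. Of the other 32, 10 set a count of 0 against a reported 0 and could not fall. Shares of all genes under the same setting follow each share of the 82. The upper 50% of CREB1 peaks by width left 8 genes after vehicle (9.76%, all genes 2.6%) and 5 after dDAVP (6.1%, all genes 1.35%). The upper 50% of C/EBP beta dDAVP peaks by score left 1 (1.22%, all genes 2.73%). A reach of 50000 bp gave 17 genes for CREB1 after dDAVP (20.7%, all genes 6.97%). For C/EBP beta it gave 2 after vehicle (2.44%, all genes 1.96%) and 14 after dDAVP (17.1%, all genes 18.9%). For C/EBP beta after dDAVP, a reach of 500 bp gave 2 (2.44%, all genes 1.79%), and peaks within 250 bp of a start also gave 2 (3.23%, all genes 1.34%). These settings change the number of peaks or the reach by construction. For CREB1 after vehicle, a reach of 500 bp gave 13 genes (15.9%, all genes 3.72%) and one of 50000 bp gave 25 (30.5%, all genes 12.5%), so that the 2 shares lay closer together at the wider reach in relative terms. The genes left out at 500 bp included Rps2 and Rpl18, whose peaks lay within 250 bp of a tabulated start. No paired analysis was possible because each group has a single peak list, and no replicate could be left out for the same reason. Depth is unknown, which limits every count of 0.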

Other observations

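Other promoter elements were counted in the 62 tabulated ribosomal protein promoters. The ETS motif CCGGAAG was present in 25 (40.3%) and in 2265 of all 17274 promoters (13.1%), and the YY1 motif ATGGCG in 19 (30.6%) and 2166 (12.5%). Among the 12 with a CREB1 vehicle peak at the start, 3 held the ETS motif (25%), and 22 of the 50 without such a peak did (44%). Over all 667 genes with such a peak the order was the other one, with 208 holding it (31.2%) beside the 13.1% of all promoters. The count of 3 in 12 is small, and the difference was not tested. The letters TATAAA were present in 7 of the 62 (11.3%) and in 14.9% of all promoters, and the GC box GGGCGG in 37 (59.7%) and in 49.8%.

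Many ribosomal protein genes host small nucleolar RNAs in their introns, and 29 of the 82 had such a gene within their bounds. These were 7 of the 17 genes near a CREB1 peak after vehicle (41.2%) and 22 of the 65 others (33.8%), with median gene lengths of 3807 and 3139 bp. Of 310 ribosomal protein pseudogenes in the gene table, 2, 0, 1 and 7 were within 5000 bp of a peak in the CREB1 vehicle, CREB1 dDAVP, C/EBP beta vehicle and C/EBP beta dDAVP lists, and none was overlapped by a peak. In the same order, 5.05%, 2.67%, 0.513% and 5.01% of all protein-coding genes were near a peak, so each pseudogene count was below the general share.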
